A study of Mus musculus with 12 samples.

Results

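CD4 T cells that carry a PP2Ac transgene were compared 6 h after stimulation with the same cells before stimulation. PP2Ac is the catalytic part of the phosphatase PP2A, and Ppp2ca is its gene. All arrays whose titles give the transgenic genotype and 6 h or 0 h were taken, which are 4 of the 12 arrays of the series, 2 at each time. The cells were naive CD4 T cells of C57BL/6 mice, cultured in RPMI medium with fetal calf serum. At 6 h they had received soluble antibodies against CD3 and CD28 in wells precoated with goat anti-hamster antibody, which gathers the bound receptors, and at 0 h they were unstimulated. The other arrays hold transgenic cells at 24 h and cells of WT mice at 0 h, 6 h and 24 h, also 2 arrays each. No title gives cells kept for 6 h without stimulation, so effects of stimulation and of time in culture cannot be told apart. What drives the transgene and whether the arrays of a pair came from separate mice or cultures the sources used here do not give. In each pair 1 title carries the mark Rep. Values below are given in the order unmarked array, array marked Rep, and p-values measure only the spread between such arrays, which may be technical.

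A naive T cell rests in a state held by transcription factors such as KLF2 and FOXO1 and by survival signals through the IL-7 receptor. Engagement of the T cell receptor and CD28 opens the calcium and NFAT, the ERK and AP-1, and the NF-kB pathways, which switch on cytokine genes and, through MYC and IRF4, the growth that precedes the first division. PP2A is a serine and threonine phosphatase built from a scaffold, a catalytic and one of many regulatory subunits, and it removes phosphates placed by several of these kinases. In this setting the comparison asks what changes within the first hours of stimulated culture in cells that carry extra PP2Ac.

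Each value is a log2 signal of a probe set, the group of short DNA probes on the array that together read a transcript, and a difference of 1 on this scale is a 2-fold change in signal. Differences are values at 6 h minus values at 0 h ± SE of a linear model (limma) fitted to all 12 arrays, with p adjusted by Benjamini-Hochberg over 23410 probe sets with a gene symbol, a threshold of 0.05 and n = 2 arrays per group. A probe set that passed is said to have risen or fallen. The number of arrays limits the precision: the median SE was 0.116. Replicate arrays differed by a root mean square of 0.206 at 0 h and 0.228 at 6 h, and replicate values correlated with r of 0.997 and 0.996 across probe sets.

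The gene of the transgene product was read first. Ppp2ca (probe set 10375926) read 13.90 and 13.88 in transgenic cells at 0 h and 13.80 and 13.69 at 6 h, against 13.15 and 13.15 at 0 h and 13.42 and 13.30 at 6 h in WT. All 4 transgenic arrays lay above all 4 WT arrays. The change in transgenic cells was -0.14 ± 0.08 and did not pass (adjusted p = 0.26). The array does not separate transcripts of the transgene from those of the mouse's own gene.

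Between 0 h and 6 h 25.4% of the probe sets changed. Of 23410, 2923 rose (12.5%) and 3012 fell (12.9%), and among them 837 rose (3.58%) and 760 fell (3.25%) by at least 2-fold. The values at 0 h and 6 h did not overlap for 14090 probe sets (60.2%), which include all 5935 called. Changes of at least 4 on the log2 scale were found for Il2 alone among rises and for Rflnb alone among falls (0.00427% of probe sets each). The median difference over all probe sets was 0.00 with these quantile normalised values, 0.01 with the values as deposited and 0.035 after centring each array on its median, and directions below are relative to this middle, which the scaling sets. The plot of change against mean level shows that large changes occurred from dim to bright probe sets.

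**Figure D1:**
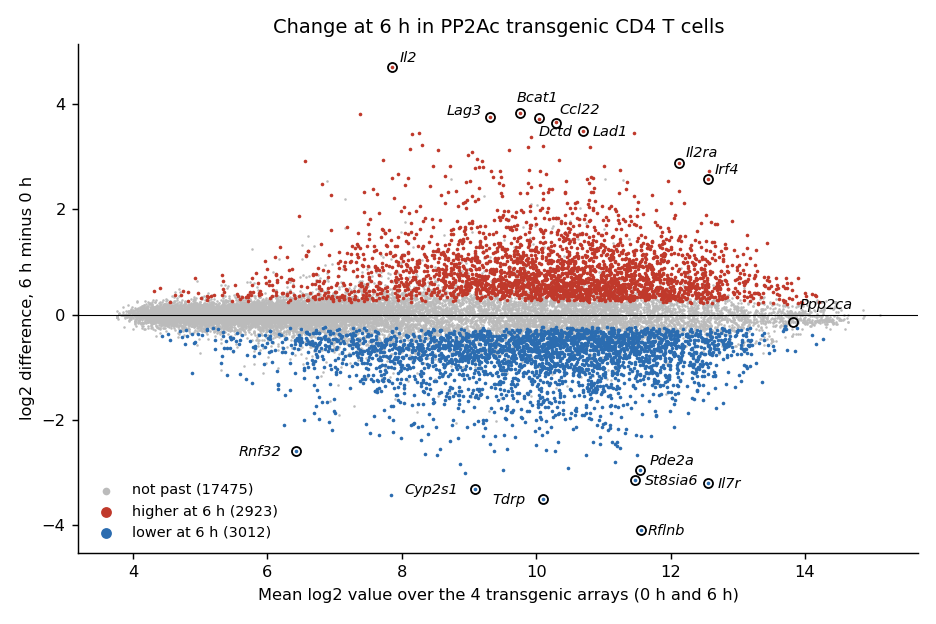
Log2 difference between 6 h and 0 h in transgenic cells (vertical axis) against the mean log2 value over the 4 transgenic arrays (horizontal axis), 1 point for each of the 23410 probe sets tested; red points rose, blue points fell, grey points did not pass. Il2 stands at the top with 4.70 and Rflnb at the bottom with -4.08, while Ppp2ca lies near 0 at the bright end.

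The growth factor of T cells led the rises. Il2 (10497878), which encodes interleukin 2, read 5.51 and 5.51 at 0 h and 10.11 and 10.31 at 6 h. Both readings at 0 h lay below the lower quartile of the arrays (6.00 to 6.02), where the signal can no longer fall in step with the transcript, so its difference of 4.70 ± 0.55 (adjusted p = 0.00028), a 26.1-fold rise in signal, is a lower bound. Lag3 (10547906), an inhibitory receptor that binds MHC class II, went from 7.44 and 7.43 to 11.50 and 10.88, a difference of 3.75 ± 0.18 (adjusted p = 8.7e-06). The times were far apart for both genes, by several times the gap between replicate arrays. Genes of metabolism were also among the largest rises. Bcat1, the cytosolic enzyme that starts the breakdown of branched-chain amino acids, read 7.48 and 8.21 at 0 h and 11.04 and 12.34 at 6 h (3.84 ± 0.55, adjusted p = 0.00081). Dctd, which makes dUMP for thymidine synthesis, read 8.20 and 8.14 and then 11.95 and 11.85 (3.73 ± 0.11, adjusted p = 1.4e-06). The arrays marked Rep read higher than the unmarked ones for Bcat1 at both times, and Dctd differed by little between them.

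The other 11 of the 15 largest rises ran from 3.18 to 3.81. Among them, Il1a encodes the cytokine interleukin 1 alpha (3.81 ± 0.61, adjusted p = 0.0015), and its readings at 0 h of 5.59 and 5.34 again lay below the lower quartile, so this too is a lower bound. Ccl22 and Ccl17 encode chemokines for the receptor CCR4 and rose by 3.65 ± 0.48 and 3.22 ± 0.44, Cxcl10 encodes a ligand of CXCR3 and rose by 3.45 ± 0.66, and Ccr8 encodes a chemokine receptor and rose by 3.20 ± 0.40. Ak4 (3.46 ± 0.35) encodes a mitochondrial adenylate kinase, Mettl1 (3.38 ± 0.16) a tRNA methyltransferase, Mfsd2a (3.18 ± 0.23) a lipid transporter and Akr1c18 (3.43 ± 0.61) a steroid dehydrogenase that inactivates progesterone. Spry1 (3.19 ± 0.17) encodes an inhibitor of receptor signalling to ERK, and Lad1 (3.49 ± 0.28) encodes ladinin, known from the anchoring filaments of epithelia. All of these passed, with adjusted p of 0.0041 or less.

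The falls were led by Rflnb (10388488), which encodes refilin B, a partner of the actin crosslinker filamin. It read 13.61 and 13.59 at 0 h and 9.81 and 9.23 at 6 h, a difference of -4.08 ± 0.32 (adjusted p = 4.5e-05). Il7r (10427628), the receptor chain through which naive T cells receive IL-7, read 14.16 and 14.14 at 0 h and 10.82 and 11.11 at 6 h (-3.19 ± 0.35, adjusted p = 0.00021). Neither gene had overlapping values. Tdrp, a gene first known from testis (-3.50 ± 0.25), Cyp2s1, a cytochrome P450 (-3.30 ± 0.30), and St8sia6, a sialyltransferase (-3.14 ± 0.36), also fell by more than 3. The remaining 10 of the 15 largest falls ran from -2.95 to -2.59. They were Pde2a, which breaks down cyclic AMP and cyclic GMP (-2.95 ± 0.40), Slc25a35, a mitochondrial carrier, Acss1, a mitochondrial acetyl-CoA synthetase (-2.91 ± 0.28), Mturn, Slc28a2b, a nucleoside transporter, Card6, Cd101, an inhibitory immunoglobulin-type receptor (-2.65 ± 0.38), Sntb1, Lypd6b and Rnf32. Rnf32 read 4.91 and 5.35 at 6 h, under the lower quartile, so its fall of -2.59 ± 0.33 is a lower bound in size.

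**Figure D2:**
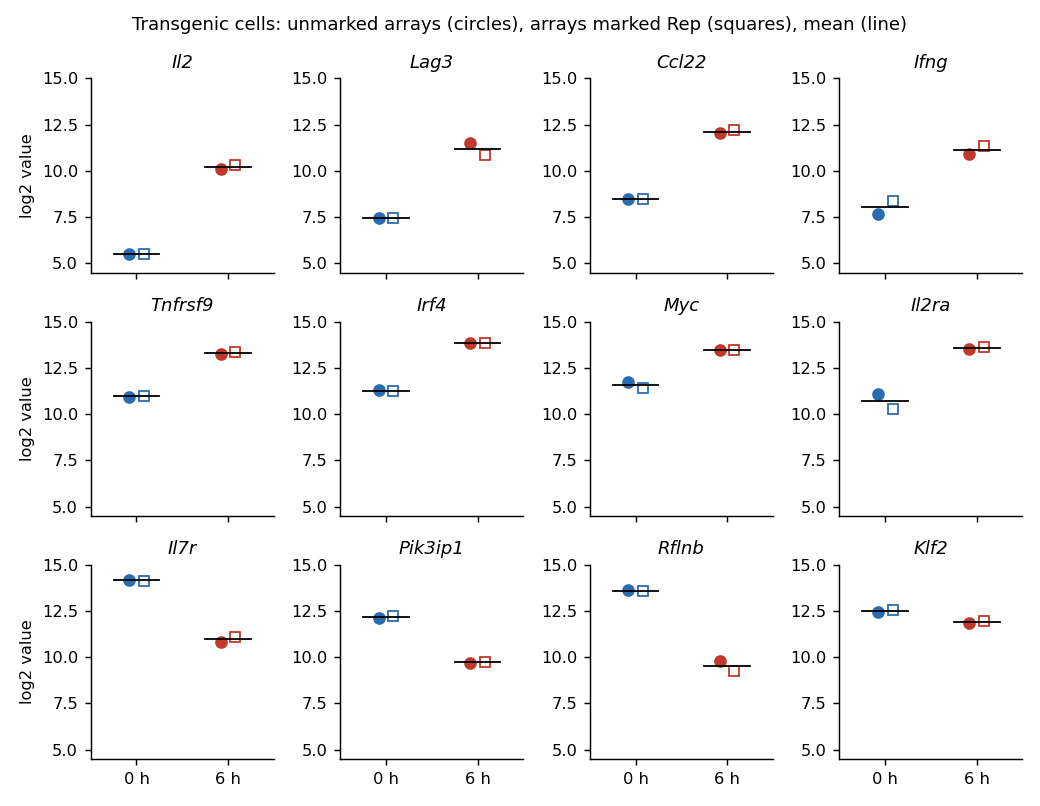
Log2 values (vertical axes) of 12 genes on the 2 arrays at 0 h (blue) and the 2 at 6 h (red) in transgenic cells; circles are unmarked arrays, squares arrays marked Rep, lines the mean. In none of the 12 panels do the values at 0 h and 6 h overlap, and the gap runs from the step of Il2 at the top left to that of Klf2, -0.59, at the bottom right.

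The gene groups below are lists chosen by function, read with 1 probe set per gene. On this basis 2517 of 19938 genes rose (12.6%), 2735 fell (13.7%) and the median difference was 0.00, which is the background for every count of a list. Of 797 listed genes, 732 had a probe set of their own. Genes without one, among them Tcf7, Lck and Nfkb1, were not analysed here. The plot of all 44 lists shows the members and the median of each.

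**Figure D3:**
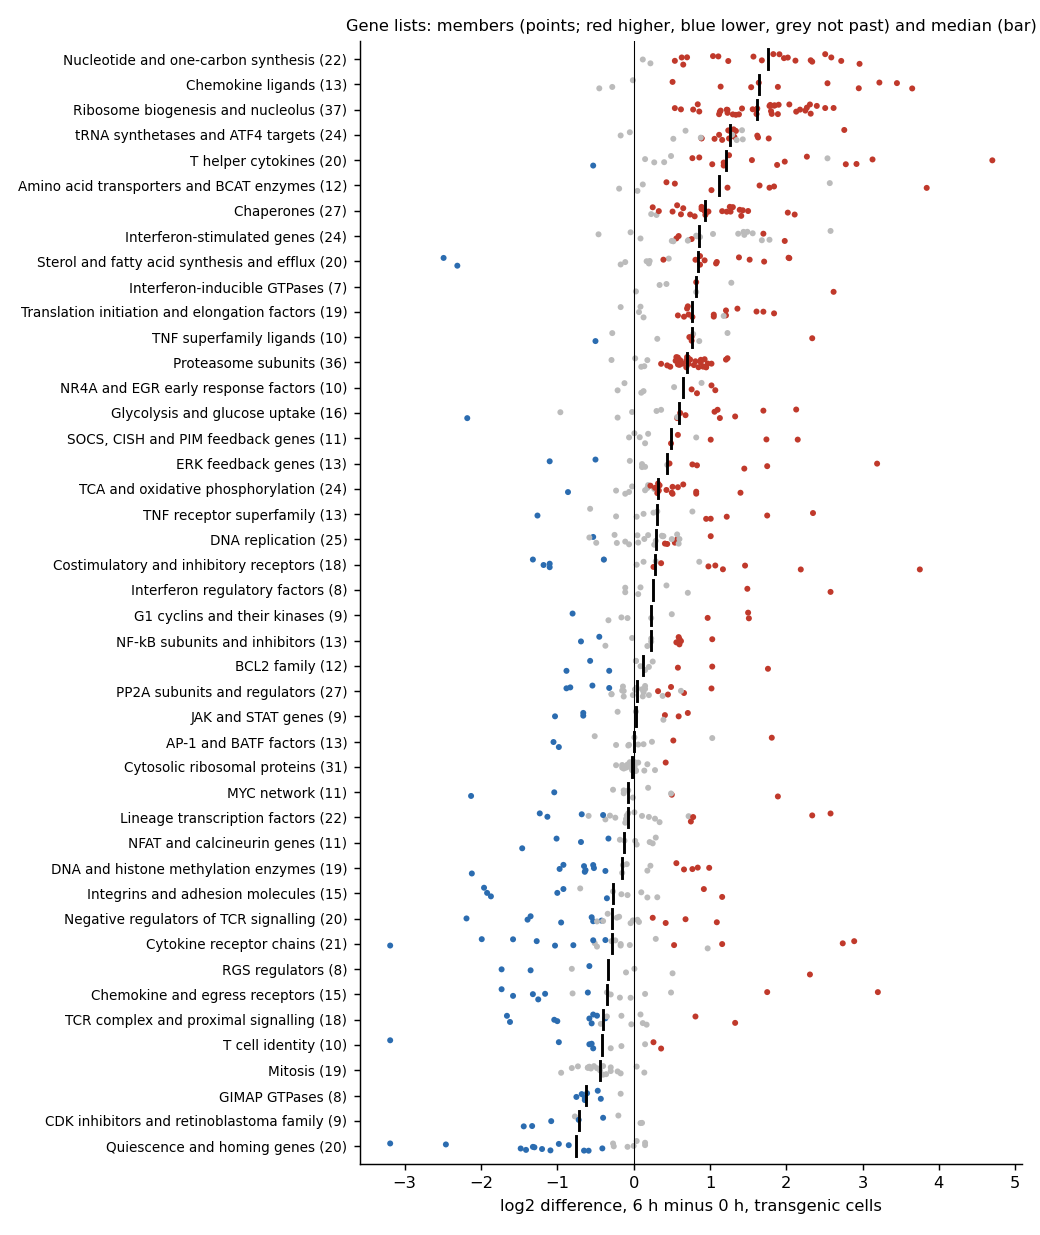
Log2 difference between 6 h and 0 h in transgenic cells (horizontal axis) for the measured members of 44 gene lists (rows, number measured in parentheses), sorted by median; points are genes, red risen, blue fallen, grey not past, and the black bar is the list's median. Nucleotide synthesis (median 1.75), chemokine ligands (1.64) and ribosome biogenesis (1.62) stand at the top, and quiescence genes (-0.75) at the bottom.

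Factors of the first transcriptional wave were only moderately above their starting level at 6 h. Of 10 NR4A, EGR and IER genes, 4 rose and 0 fell, with a median of 0.65. Egr1 and Egr2, zinc finger factors induced by receptor signalling, rose by 1.07 ± 0.17 and 1.02 ± 0.17 (adjusted p = 0.0015 and 0.0017), and Nr4a1, an orphan nuclear receptor used as a reporter of receptor signal, by 0.83 ± 0.16, from 12.95 and 12.79 to 13.62 and 13.78. Of 13 AP-1 and BATF genes, 2 rose and 2 fell, with a median of 0.01. Fosl1, a FOS family member, went from 7.69 and 7.63 to 9.87 and 9.06 (1.81 ± 0.35, adjusted p = 0.0046), and Batf, a partner of IRF4 on DNA, rose by 0.52 ± 0.15, a call that ended without either array at 0 h or the unmarked one at 6 h. Bach1 and Fosb fell by 1.05 and 0.98 on the log2 scale, and the call of Fosb ended without either unmarked array. Fos (-0.07 ± 0.21) and Jun (0.06 ± 0.24) did not pass.

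In the NFAT and calcineurin list the calls went the other way. Of its 11 genes 4 fell and 0 rose (1 after median centring), with a median of -0.12: Nfatc2 (-1.01 ± 0.10) and Nfatc3 (-0.69 ± 0.08), which encode NFAT proteins, Ppp3ca (-1.46 ± 0.15), which encodes a catalytic subunit of calcineurin, and Dyrk1a (-0.33 ± 0.10), which encodes a kinase that opposes NFAT and lost its call without any 1 of the 4 arrays. Ppp3ca read 11.58 and 11.56 at 0 h and 9.93 and 10.28 at 6 h. Of 13 NF-kB genes 6 rose and 2 fell (median 0.23). The risen genes Nfkb2 (0.56 ± 0.09), which encodes a subunit, and Nfkbie (0.60 ± 0.08) and Nfkbib (0.60 ± 0.10), which encode inhibitors, changed by similar amounts, and Bcl3, a nuclear co-regulator, rose by 1.03 ± 0.15. Cyld, a deubiquitinase that restrains the pathway, fell by 0.69 on the log2 scale (SE 0.10, adjusted p = 0.0011), and the other fallen gene, Tnip1 (-0.45 ± 0.10), did not pass without the array marked Rep at 0 h or the unmarked array at 6 h.

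Among feedback genes of ERK signalling 6 of 13 rose and 2 fell, with a median of 0.44. Beside Spry1, the phosphatase gene Dusp5 went from 11.39 and 11.77 to 13.19 and 13.47 (1.75 ± 0.15, adjusted p = 5.9e-05), Spred1 rose by 1.45 ± 0.18 and Dusp2 by 0.83 ± 0.08. Dusp1 and Dusp10 fell by 0.50 and 1.10, calls that ended without the array marked Rep at 0 h or the unmarked array at 6 h. Of 11 SOCS, CISH and PIM genes, which are induced by cytokine receptors, 5 rose and 0 fell (median 0.49). Cish, an inhibitor of STAT5 signalling, went from 10.36 and 10.51 to 12.57 and 12.61 (2.15 ± 0.21, adjusted p = 0.00011), Socs1 rose by 1.74 ± 0.17, and the kinase genes Pim2 and Pim3 rose by 1.01 ± 0.20 and 0.58 ± 0.10. Replicate arrays lay close together for Cish and Socs1.

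Cytokine genes rose widely. Of 20 T helper cytokine genes 14 rose and 1, Tgfb3, fell, and the median was 1.22. Ifng, the interferon of type 1 helper cells, read 7.68 and 8.38 at 0 h and 10.93 and 11.37 at 6 h (3.13 ± 0.42, adjusted p = 0.00057). Lif, leukaemia inhibitory factor, read 7.93 and 7.46 and then 10.31 and 10.65 (2.78 ± 0.27, adjusted p = 0.00011). Tnf read 10.67 and 10.24 and then 12.37 and 12.29 (1.88 ± 0.22, adjusted p = 0.00026). None of these overlapped between the times. Il17f and Il17a, which encode cytokines of type 17 helper cells, rose by 1.98 ± 0.22 and 1.18 ± 0.13. Il3, a growth factor for myeloid cells, and Il6 rose by 2.92 ± 0.34 and 2.27 ± 0.32, and Il4, the cytokine of type 2 helper cells, by 0.86 ± 0.11. Il21 had readings at 6 h as different as 9.22 and 7.09, and its 2.54 ± 0.85 did not pass (adjusted p = 0.057, but 0.023 with the replicate block, 0.024 in a fit of the 4 transgenic arrays alone and 0.13 with robust moderation). Without 1 transgenic array, 10 to 12 of the 20 rose.

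Chemokine ligands moved with them: 10 of 13 rose, 0 fell, and the median was 1.64. Ccl3 and Ccl4, inflammatory chemokines, went from 10.77 and 10.62 to 13.27 and 13.20 and from 7.15 and 7.5 to 8.97 and 8.76, differences of 2.54 ± 0.34 and 1.54 ± 0.18. Ccl1, the ligand of CCR8, rose by 1.64 ± 0.20 (adjusted p = 0.00038). Ccl22 read 8.47 and 8.46 at 0 h and 12.03 and 12.20 at 6 h, and Cxcl9, like Cxcl10 an interferon gamma induced ligand of CXCR3, read 8.72 and 9.02 and then 11.83 and 11.81. Several of these chemokines, and Il1a and Il6, are also made by monocytes and dendritic cells. Of 9 monocyte or macrophage markers 0 rose and 1 fell (0 without any 1 of the 4 arrays), and of 8 dendritic cell markers 0 rose and 3 fell. Cd14, a monocyte receptor, nevertheless read 8.42 and 8.11 at 0 h and 9.55 and 9.19 at 6 h, which did not pass (adjusted p = 0.36), and in a fit of the 4 transgenic arrays alone it rose (adjusted p = 0.0037) while 6 monocyte markers fell. Fscn1, a marker of mature dendritic cells, read 10.25 and 10.96 and then 11.13 and 11.61 and passed only with the replicate block (adjusted p = 0.031 against 0.47). Their part in these changes was not tested.

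The letters of the promoters show where matches to NFAT and AP-1 motifs lie in the cytokine genes. Promoter sequences were taken from RefSeq (GRCm38.p6), from 250 bases before to 50 after a gene's start, for 15614 of the 19938 genes (19177 promoters), and motifs were searched on both strands. The NFAT core, GGAAAA, occurred in 44.4% of 18 cytokine promoters and 22% of all. The AP-1 motif, searched as TGANTCA with any base at N, occurred in 22.2% and 6.90%. These are shares of letters, and with 18 promoters each makes a large step. Shown are the stretches, 5′ to 3′ along the gene and ending just before its start, of Il2, the largest rise (chr3:37125955-37126104 on the minus strand, NFAT cores 137 and 48 bases before the start), of Tnf (chr17:35202008-35202098 on the minus strand, 78 and 55 bases) and of the pair Il17f (chr1:20784271-20784452 on the minus strand, NFAT core at 169 bases) and Il17a (chr1:20730655-20730904 on the plus strand, AP-1 motif at 244 bases), with the motifs in capitals. They were chosen after values and motifs had been seen.
Il2: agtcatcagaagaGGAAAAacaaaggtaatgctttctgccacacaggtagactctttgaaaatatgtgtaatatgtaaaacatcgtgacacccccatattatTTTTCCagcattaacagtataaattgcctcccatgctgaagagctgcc
Tnf: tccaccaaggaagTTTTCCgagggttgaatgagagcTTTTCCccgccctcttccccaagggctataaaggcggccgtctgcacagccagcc
Il17f: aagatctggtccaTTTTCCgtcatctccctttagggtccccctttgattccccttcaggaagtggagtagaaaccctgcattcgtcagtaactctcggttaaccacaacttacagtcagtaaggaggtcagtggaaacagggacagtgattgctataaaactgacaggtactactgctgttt
Il17a: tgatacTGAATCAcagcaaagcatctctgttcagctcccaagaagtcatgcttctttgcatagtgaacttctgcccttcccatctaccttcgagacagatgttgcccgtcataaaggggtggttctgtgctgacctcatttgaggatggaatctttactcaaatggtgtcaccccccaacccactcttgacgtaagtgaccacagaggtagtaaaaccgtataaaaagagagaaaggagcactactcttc

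Receptors for cytokines changed in both directions. Of 21 chains 4 rose and 8 fell, with a median of -0.29. Il2ra, the chain that gives the IL-2 receptor its high affinity, went from 11.10 and 10.27 to 13.53 and 13.61 (2.89 ± 0.33, adjusted p = 0.00024). Il15ra, its relative for IL-15, went from 8.14 and 8.03 to 10.69 and 10.96 (2.74 ± 0.23, adjusted p = 5.7e-05). In contrast to these, Il6ra fell from 13.07 and 13.15 to 11.75 and 11.32 (-1.58 ± 0.14, adjusted p = 6.7e-05), Il18r1 by 1.99 and Il4ra by 0.79. Of 9 JAK and STAT genes 3 rose and 3 fell (median 0.03, and 1 rose without the unmarked array at 0 h or the array marked Rep at 6 h), with Stat3 at 0.41 ± 0.08, Stat5b at -1.03 ± 0.09 and Jak1 at -0.66 ± 0.09.

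Genes of the TNF receptor family rose more often than they fell. Of 13 receptors 5 rose and 1 fell (median 0.31), and of 10 ligands 4 rose and 1 fell (median 0.76). Tnfrsf9, which encodes the costimulator 4-1BB, went from 10.92 and 10.98 to 13.25 and 13.36 (2.35 ± 0.19, adjusted p = 4.5e-05). Tnfsf4, the OX40 ligand, went from 5.99 and 6.55 to 8.70 and 8.51 (2.34 ± 0.20, adjusted p = 5.5e-05). Cd40, better known from B cells and dendritic cells, rose by 1.75 ± 0.16, the death receptor gene Fas by 1.22 ± 0.18 and Tnfrsf8, which encodes CD30, by 0.95 ± 0.14. Tnfrsf26 fell by 1.26, a call that ended without the array marked Rep at 0 h or the unmarked array at 6 h. Cd40lg, the helper ligand, fell by 0.50 (SE 0.14), a call that ended without either unmarked array and after median centring. The count of risen ligands was 2 without the unmarked array at 0 h and 2 without the array marked Rep at 6 h.

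Costimulatory and inhibitory receptors split, with 8 of 18 risen and 5 fallen (median 0.27, and 3 fallen without the unmarked array at 6 h). Beside Lag3, Cd200, a ligand that restrains myeloid cells, went from 9.18 and 8.82 to 11.18 and 11.20 (2.19 ± 0.22, adjusted p = 0.00013). Slamf1 (1.46 ± 0.25) and the costimulator gene Icos (0.98 ± 0.13) rose, and Slamf6 (-1.18 ± 0.12) and Cd200r1 (-1.32 ± 0.22), the receptor of CD200, fell. Cd69, the early activation antigen, read 12.40 and 12.59 at 0 h and 13.41 and 13.91 at 6 h. Its rise of 1.16 ± 0.31 (adjusted p = 0.02) did not pass without either array at 0 h or the array marked Rep at 6 h.

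The machinery next to the T cell receptor fell more than it rose: 9 of 18 genes fell and 2 rose, with a median of -0.40. Grap2, an adaptor that brings SLP-76 to LAT, went from 13.19 and 13.41 to 11.81 and 11.54 (-1.62 ± 0.13, adjusted p = 5.2e-05). Themis (-1.66 ± 0.19), Sh2d1a, the adaptor SAP (-1.04 ± 0.14), and Plcg1, the phospholipase that raises calcium (-1.0 ± 0.13), fell with it. Malt1, a paracaspase that carries antigen receptor signals to NF-kB, went from 11.10 and 11.22 to 12.55 and 12.42 (1.33 ± 0.12), and the kinase gene Zap70 rose by 0.81 ± 0.09. Negative regulators of the receptor behaved alike in counts, with 7 of 20 fallen and 4 risen (median -0.28, and 1 to 2 risen without 1 transgenic array). Sla2 and Sla encode related adaptors that restrain receptor signalling: Sla2 went from 12.08 and 12.26 to 10.03 and 9.93 (-2.19 ± 0.13, adjusted p = 1.4e-05) while Sla went from 12.72 and 12.57 to 13.67 and 13.80 (1.09 ± 0.10, adjusted p = 6.9e-05). Pag1 (-1.35 ± 0.11), Ubash3a (-1.39 ± 0.12) and Inpp5d, the lipid phosphatase SHIP1 (-0.95 ± 0.10), fell.

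Many quiescence and homing genes fell. Of 20 measured genes 13 fell, 0 rose and 7 did not pass, and the median was -0.75, with 9 to 11 fallen without 1 transgenic array. Pik3ip1, an inhibitor of PI3 kinase, went from 12.12 and 12.24 to 9.71 and 9.74 (-2.46 ± 0.29, adjusted p = 0.00029). Tob1, an antiproliferative factor, went from 11.85 and 11.94 to 10.44 and 10.54 (-1.41 ± 0.12, adjusted p = 5.7e-05), and Lef1, a partner of TCF1 in naive T cells, fell by 0.98 (SE 0.09). Values at both times were tight for these genes. Klf2, which drives homing receptors, read 12.42 and 12.56 at 0 h and 11.86 and 11.94 at 6 h, and its -0.59 ± 0.16 (adjusted p = 0.023) lost its call without any 1 of the 4 arrays. Ccr7, the lymph node homing receptor, did not pass, with 14.16 and 14.22 and then 14.29 and 14.39 (0.15 ± 0.09, adjusted p = 0.30).

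Receptors for chemokines and egress followed in part, with 6 of 15 fallen and 2 risen (median -0.35). S1pr1, the egress receptor for sphingosine 1-phosphate, went from 13.43 and 13.55 to 12.16 and 12.18 (-1.32 ± 0.20, adjusted p = 0.001), S1pr4 fell by 1.16 and Ccr9, a gut homing receptor, by 1.25, while Ccr4 rose by 1.75 ± 0.22 and Ccr8 is described above. Of 15 integrin and adhesion genes 6 fell and 2 rose (median -0.27): Itgb7, Itga6 and Itga4 fell by 1.96, 1.92 and 1.87, and Icam1 rose by 0.92 ± 0.15, with 1 risen without either array at 0 h or the array marked Rep at 6 h. All but 1 of the 8 GIMAP genes, small GTPases of lymphocyte survival, fell, with a median of -0.62 and Gimap3 at -0.75 ± 0.10. That count of 7 was 4 without the array marked Rep at 0 h and 4 without the unmarked array at 6 h. Of 8 RGS genes, brakes on G protein signalling, 3 fell and 1 rose: Rgs14 and Rgs2 fell by 1.35 and 1.73, and Rgs16 went from 8.67 and 8.75 to 10.98 and 11.06 (2.31 ± 0.22, adjusted p = 0.00011).

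Of 22 lineage factors 4 rose and 4 fell (median -0.08), against 12.6% and 13.7% of all genes. Irf4, a factor of effector differentiation, read 11.29 and 11.24 at 0 h and 13.83 and 13.85 at 6 h (2.58 ± 0.18, adjusted p = 2.7e-05). Tbx21, which encodes T-bet, the factor of type 1 helper cells, went from 9.63 and 9.72 to 11.79 and 12.23 (2.34 ± 0.27, adjusted p = 0.00026). The steps were several times the gap between replicate arrays. Zeb1 fell by 1.23 and Rora by 1.13, the latter a call that ended without the array marked Rep at 0 h or the unmarked one at 6 h. The count of fallen factors was 2 without either array at 0 h and 1 without the unmarked array at 6 h. Gata3 and Foxp3, factors of type 2 helper and regulatory T cells, read 0.20 ± 0.25 and -0.31 ± 0.36 and did not pass.

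Interferon-stimulated genes leaned upward but few passed. Of 24, 5 rose and 0 fell, the median was 0.85 and the replicate arrays at 0 h already differed. Usp18, which removes ISG15 from proteins, read 11.36 and 10.53 at 0 h and 12.64 and 12.66 at 6 h (1.70 ± 0.39, adjusted p = 0.011). Stat2, Xaf1 and Zbp1 rose by 0.59 ± 0.15, 0.76 ± 0.20 and 0.56 ± 0.16. With the mark Rep as a block 13 of the 24 rose, and in a fit of the 4 transgenic arrays alone 17 rose and 1 fell. After median centring 8 rose and with array weights 10. Without the unmarked array at 0 h 1 did, and without any other of the 4 arrays 0 did. Of 7 interferon-inducible GTPases 2 rose (6 with the block, 1 without any 1 array) and the median was 0.82. Gbp5 went from 9.39 and 9.62 to 11.91 and 12.33 (2.62 ± 0.39, adjusted p = 0.0011). Of 8 interferon regulatory factors 2 rose, Irf4 and Irf8 (1.49 ± 0.14), and Irf7 read 0.71 ± 0.34 (adjusted p = 0.18).

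The motif of interferon response elements, searched as GAAANNGAA, occurred in 45.5% of 22 promoters of interferon-stimulated genes, in 44.4% of 9 chemokine promoters and in 7.84% of all. It was also in 30.0% of the 30 promoters of cytosolic ribosomal proteins, a list in which 1 gene rose. The NF-kB motif, searched as GGGANTTTC, occurred in 2.09% of 717 promoters of genes that rose at least 2-fold and in 1.08% of all. Stretches of Gbp5 (chr3:142496718-142496933 on the plus strand), where capitals mark an NF-kB motif, the interferon element and another NF-kB motif 203, 164 and 76 bases before the start, and of Cxcl10 (chr5:92348890-92349115 on the minus strand), where capitals mark the interferon element and an AP-1 motif at 213 and 74 bases, show both kinds of letters.
Gbp5: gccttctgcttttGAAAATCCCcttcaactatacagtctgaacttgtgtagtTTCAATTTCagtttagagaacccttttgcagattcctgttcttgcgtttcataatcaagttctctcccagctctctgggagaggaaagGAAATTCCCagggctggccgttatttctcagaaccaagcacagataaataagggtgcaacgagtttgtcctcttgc
Cxcl10: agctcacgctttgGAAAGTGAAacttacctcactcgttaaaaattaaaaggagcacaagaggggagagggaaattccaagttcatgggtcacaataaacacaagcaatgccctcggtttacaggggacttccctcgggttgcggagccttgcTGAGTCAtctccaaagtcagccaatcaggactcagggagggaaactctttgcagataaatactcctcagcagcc

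The broadest rise was in genes of growth. All 37 measured genes of ribosome biogenesis rose, with a median of 1.62, and 36 to 37 of them rose without 1 transgenic array. Grwd1, a chaperone of ribosome assembly, read 8.63 and 8.63 at 0 h and 11.18 and 11.09 at 6 h (2.51 ± 0.10, adjusted p = 8.7e-06). Rrp1b, a nucleolar protein, read 9.0 and 8.97 and then 11.44 and 11.33 (2.40 ± 0.11, adjusted p = 8.7e-06). Dkc1, the pseudouridine synthase dyskerin, and Nolc1, which assists small nucleolar RNPs, rose by 2.04 ± 0.10 and 1.80 ± 0.09. The ribosomal proteins themselves did not follow: of 31 measured genes 1, Rpl30, rose (0.42 ± 0.13), 0 fell, and the median was -0.02. The call of Rpl30 ended without either unmarked array. Many of these genes have near-identical pseudogenes, so their probe sets may read several loci.

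Myc, which encodes a factor known to drive growth of lymphocytes, went from 11.75 and 11.41 to 13.44 and 13.49 (1.89 ± 0.20, adjusted p = 0.00015). Its partner Max rose by 0.50 ± 0.09. The part of MYC in the rises above was not tested. Mxd4 and Mxi1, which compete with MYC for MAX, went the other way, Mxd4 from 11.53 and 11.78 to 9.47 and 9.58 (-2.13 ± 0.25) and Mxi1 by -1.04 ± 0.10. Of the 11 genes of this network 2 rose and 2 fell. Of 19 translation factors 14 rose and 0 fell, with a median of 0.77: Eif2b3, part of the exchange factor of initiation, by 1.84 ± 0.11, Eef1e1 by 1.70 ± 0.11, Eif5a by 1.36 ± 0.10 and Eif3b by 1.21 ± 0.09.

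Genes that fold and degrade proteins rose together. Of 27 chaperone genes 25 rose and 0 fell (median 0.94, 22 to 23 risen without 1 transgenic array). Hspd1, the mitochondrial chaperonin HSP60, read 11.01 and 10.90 at 0 h and 13.07 and 13.07 at 6 h (2.11 ± 0.11, adjusted p = 1.2e-05). Its partner Hspe1 rose by 1.39 ± 0.10, Hsph1, an HSP110 protein, by 2.02 ± 0.12 and Cct3, a subunit of the cytosolic chaperonin, by 1.5 ± 0.09. Of 36 proteasome genes 31 rose and 0 fell (median 0.69, 27 to 30 without 1 array), with Psmc5 and Psma7 at 1.21 ± 0.11 and 1.23 ± 0.13 and Psme3 and Psmd14 at 0.85 ± 0.08 and 0.88 ± 0.09. The 3 immunoproteasome subunits, which replace others under interferon, did not pass: Psmb8 read 0.14 ± 0.09, Psmb9 0.10 ± 0.11 and Psmb10 -0.29 ± 0.14.

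The canonical E-box, CACGTG, which MYC and related factors bind, was, of the 8 motifs searched, the one whose share differed most, in percentage points, between risen and fallen promoters. It occurred in 17.2% of the 717 promoters of genes that rose at least 2-fold, 7.92% of the 720 of genes that fell at least 2-fold, 9.34% of the 5310 of genes that did not pass and were brighter than the median gene, and 8.24% of all. Base composition was not matched, and no test was made of these shares. By list, it occurred in 7 of 20 translation factor promoters, 22.7% of nucleotide synthesis promoters, 7 of 35 ribosome biogenesis promoters and 0 of the 18 cytokine promoters. Shares in other lists with many risen genes varied. They were 3 of 33 for the proteasome, 1 of 13 for amino acid transporters and 4 of 28 for chaperones. For tRNA synthetases and ATF4 targets the share was 3 of 19, and for the TCA cycle and oxidative phosphorylation 4 of 24. The E-box was also in 16.7% of the 30 promoters of cytosolic ribosomal proteins, where 1 gene rose. The shares of the NFAT core (23.4% of risen, 19.3% of fallen) and the AP-1 motif (5.30% and 5.56%) lay closer together, and EGR (GCGGGGGCG), sterol response (TCACCCCAC) and CRE (TGACGTCA) motifs occurred in 3.35%, 0.697% and 2.79% of the risen against 4.17%, 0.553% and 2.37% of all. The E-boxes are shown in capitals for 4 risen genes, of which Hspd1 and Hsph1 are both on the chaperone list. Cdk4 (chr10:127063350-127063534 on the plus strand) has 4 E-boxes at 172, 118, 98 and 11 bases before its start. The others are Hspd1 (chr1:55088244-55088336 on the minus strand, 80 bases), Farsb (chr1:78488898-78488949 on the minus strand, 39 bases) and Hsph1 (chr5:149636316-149636347 on the minus strand, 19 bases). These genes were chosen after values and motifs had been seen.
Cdk4: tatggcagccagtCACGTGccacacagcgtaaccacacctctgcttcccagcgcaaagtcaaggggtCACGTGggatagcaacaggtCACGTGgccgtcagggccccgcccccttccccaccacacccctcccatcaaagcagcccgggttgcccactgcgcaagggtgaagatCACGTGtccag
Hspd1: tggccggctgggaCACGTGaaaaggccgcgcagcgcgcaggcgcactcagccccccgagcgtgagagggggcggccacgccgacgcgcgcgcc
Farsb: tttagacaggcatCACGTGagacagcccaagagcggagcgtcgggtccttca
Hsph1: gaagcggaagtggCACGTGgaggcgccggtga

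Synthesis of nucleotides had the highest median of all 44 lists. Of 22 genes 20 rose and 0 fell, and the median was 1.75, with 17 to 19 risen without 1 transgenic array. Cad, the enzyme that starts pyrimidine synthesis, read 9.55 and 9.73 at 0 h and 12.03 and 11.93 at 6 h (2.34 ± 0.10, adjusted p = 8.7e-06). Shmt1, which passes one-carbon units from serine to folate in the cytosol, read 7.74 and 7.54 and then 10.70 and 10.51 (2.96 ± 0.14, adjusted p = 8.7e-06). Srm, spermidine synthase, read 11.28 and 11.13 and then 14.05 and 13.80 (2.72 ± 0.13, adjusted p = 8.7e-06). Mthfd1, a folate enzyme of both purine and thymidylate supply, rose by 2.59 ± 0.12. For all 4 the step was many times the gap between replicate arrays.

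Supply of amino acids was less even. Of 24 tRNA synthetase and ATF4 target genes 15 rose and 0 fell (median 1.26), among them the synthetase genes Farsb (1.27 ± 0.10, adjusted p = 4.5e-05), Vars (0.89 ± 0.09), Hars (0.89 ± 0.11) and Wars (1.25 ± 0.20). The count was 7 without the unmarked array at 0 h and 7 without the array marked Rep at 6 h. In that last array several ATF4 targets read far above its partner: Chac1, which breaks down glutathione, read 8.52 and 9.09 at 0 h but 8.70 and 11.76 at 6 h, and Trib3, a pseudokinase, 9.01 and 9.39 but 7.79 and 10.52. Neither passed (adjusted p = 0.57 and 0.98). Of 12 amino acid transporters and BCAT enzymes 8 rose and 0 fell (median 1.13). Slc7a6 (1.02 ± 0.08) and Slc7a1 (1.65 ± 0.31) carry basic amino acids, and Slc1a5, the glutamine transporter, went from 11.75 and 11.63 to 12.84 and 13.01 (1.23 ± 0.15, adjusted p = 0.00033).

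Energy metabolism shifted less. Of 16 glycolysis and glucose uptake genes 9 rose and 1 fell (median 0.59), and 5 rose without the unmarked array at 6 h. Hk2, the inducible hexokinase, went from 8.04 and 7.65 to 9.79 and 10.15 (2.13 ± 0.31, adjusted p = 0.00096), the lactate and pyruvate carrier gene Slc16a1 from 10.07 and 10.32 to 11.84 and 11.95 (1.70 ± 0.14), and Pgk1 and Pgam1 rose by 1.10 ± 0.10 and 1.13 ± 0.15. Pdk1, which encodes an inhibitor of pyruvate dehydrogenase, was the gene that fell, from 11.69 and 11.58 to 9.60 and 9.31 (-2.18 ± 0.12, adjusted p = 1.3e-05). Of 24 genes of the TCA cycle and oxidative phosphorylation 15 rose and 1, Idh2, fell, with a small median of 0.31. The count of risen genes was 9 in a fit of the 4 transgenic arrays alone, 6 without the unmarked array at 0 h, 6 without the array marked Rep at 0 h and 6 without the unmarked array at 6 h, and the call of Idh2 ended without the unmarked array at 0 h or the array marked Rep at 6 h. Idh3a rose by 1.40 ± 0.12, and the respiratory chain genes Cox5a and Cyc1 by 0.82 ± 0.10 and 0.82 ± 0.11.

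Many genes of sterol and fatty acid synthesis rose. Of 20 genes on this list 12 rose, 2 fell and 6 did not pass (median 0.84), among the latter the synthesis genes Mvk (0.21), Acly (0.20) and Scd2 (-0.17). Idi1 and Sqle, enzymes of cholesterol synthesis, went from 9.75 and 9.77 to 11.73 and 11.87 and from 9.78 and 9.78 to 11.38 and 11.60 (2.04 ± 0.13 and 1.71 ± 0.13). Fasn and Acaca, enzymes of fatty acid synthesis, rose by 1.09 ± 0.08 and 1.52 ± 0.13. The 2 that fell were the efflux pumps on the list: Abcg1 went from 12.18 and 12.72 to 9.81 and 10.11 (-2.49 ± 0.33, adjusted p = 0.00051) and Abca1 fell by 2.31 (SE 0.33).

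Genes of the G1 phase changed in part, and the count of mitosis genes depended on the arrays fitted. Of 9 G1 cyclins and kinases 3 rose and 1 fell: Ccnd2 went from 12.33 and 12.44 to 13.92 and 13.86 (1.51 ± 0.10, adjusted p = 1.9e-05), Cdk6 and Cdk4 rose by 1.5 ± 0.32 and 0.97 ± 0.09, and Ccnd3 fell by 0.80 (SE 0.12). Of 9 CDK inhibitors and retinoblastoma genes 5 fell and 0 rose (median -0.72, and 3 fell without any 1 array but the unmarked one at 0 h). Cdkn1b, which encodes p27, went from 13.06 and 13.16 to 11.60 and 11.75 (-1.44 ± 0.15, adjusted p = 0.00017), and Rbl2 and Rb1 fell by 1.33 and 1.08. Of 25 DNA replication genes 5 rose and 1 fell (median 0.29), with Mcm5 at 0.57 ± 0.11 and Fen1 at 1.01 ± 0.22, and 1 rose without the unmarked array at 0 h and 2 without the unmarked array at 6 h. Fen1 was among the calls that ended without either of these arrays, and the gene that fell, Cdt1 (-0.53), did not pass without any 1 of the 4 arrays or after median centring. Of 19 mitosis genes 0 passed and the median was -0.44, and Mki67, a marker of cycling cells, read 10.44 and 10.25 at 0 h and 9.53 and 9.55 at 6 h (-0.81 ± 0.66, adjusted p = 0.46). This SE is pooled over all 6 groups of the series. In a fit of the 4 transgenic arrays at 0 h and 6 h alone, 12 of the 19 fell and 0 rose, and Mki67 passed (limma, adjusted p = 0.0026).

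Regulators of survival and of chromatin changed gene by gene. Of 12 BCL2 family genes 3 rose and 3 fell (median 0.12): Bcl2l1, which encodes the survival factor BCL-XL, went from 9.11 and 8.84 to 10.58 and 10.88 (1.76 ± 0.18, adjusted p = 0.00013), the killer genes Bid and Bak1 rose by 1.03 ± 0.10 and 0.58 ± 0.11, and Bad and Bmf fell by 0.57 and 0.88. The count of fallen genes was 1 without any 1 of the 4 arrays. The call of Bad ended without either array marked Rep and that of Bmf without either unmarked array. Of 19 DNA and histone methylation enzymes 5 rose and 9 fell (median -0.15). Tet1, which oxidises methylcytosine, went from 9.65 and 9.49 to 7.42 and 7.46 (-2.12 ± 0.13, adjusted p = 1.8e-05), and Tet3 fell by 0.97. Dnmt3a, which methylates DNA de novo, and Dot1l, the H3K79 methyltransferase, rose by 0.56 ± 0.08 and 0.99 ± 0.08. Setd7 and Ezh1 fell by 0.92 and 0.65.

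Genes of the phosphatase itself changed in both directions. Of 27 PP2A subunits and regulators 5 rose and 4 fell, against 12.6% and 13.7% of all genes, the median was 0.04, and 3 rose without the unmarked array at 0 h. The catalytic subunit genes Ppp2ca and Ppp2cb (0.12 ± 0.09) and the scaffold gene Ppp2r1a (0.11 ± 0.08) did not pass, whereas the other scaffold gene, Ppp2r1b, went from 11.22 and 11.29 to 12.05 and 11.78 (0.66 ± 0.11, adjusted p = 0.0022). Among regulatory subunits, Ppp2r5c went from 12.10 and 12.08 to 11.21 and 11.22 (-0.88 ± 0.07, adjusted p = 4.8e-05) and Ppp2r5b fell by 0.83 (SE 0.12). Set, which encodes a protein that inhibits PP2A, rose by 1.02 ± 0.17, from 7.95 and 7.48 to 8.82 and 8.64, and Ptpa, which encodes an activator of the phosphatase, by 0.49 ± 0.10. Mid1, a ubiquitin ligase that acts on the pool of PP2Ac through its alpha4 partner, rose by 0.45 ± 0.11 (adjusted p = 0.015), a call that ended without the unmarked array at 0 h or the array marked Rep at 6 h.

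Markers of T cells and of other cells were read on the same arrays. The 9 measured markers of naive CD4 T cells averaged 13.44 and 13.39 at 0 h and 12.81 and 12.71 at 6 h, with 5 fallen and 1 risen (0 risen without any 1 of the 4 arrays), and Cd4 itself went from 13.73 and 13.75 to 13.34 and 12.98 (-0.58 ± 0.11, adjusted p = 0.0043). Markers of other cells were not absent. The 8 B cell markers averaged 10.56 and 10.68 at 0 h and 9.23 and 9.58 at 6 h, and 5 of them fell, with a median of -1.45 and Cd79a at -1.70 ± 0.28. The 8 memory markers averaged 9.96 and 9.82 and then 9.15 and 9.21, and 5 fell and 1 rose (3 fell without any 1 array). The 11 neutrophil markers averaged 12.37 and 11.51 at 0 h and 11.51 and 10.87 at 6 h, with 0 passed, and the arrays of a pair differed by as much as the times. Of 4 NK cell, 5 erythroid and 2 CD8 T cell markers 0 passed, and in a fit of the 4 transgenic arrays alone 2 neutrophil, 2 NK cell and 3 erythroid markers fell. Monocyte markers averaged 10.31 and 10.06 and then 9.83 and 9.71, and dendritic cell markers 8.08 and 8.49 and then 7.54 and 7.88 (1 of 8 fell without the array marked Rep at 0 h, 2 without the unmarked array at 6 h). No marker of any list lay below the lower quartile on all 4 arrays. In RNA from whole samples fewer cells of a type and less RNA per cell cannot be told apart, and the part of these markers in the gene groups above was not tested.

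**Figure D4:**
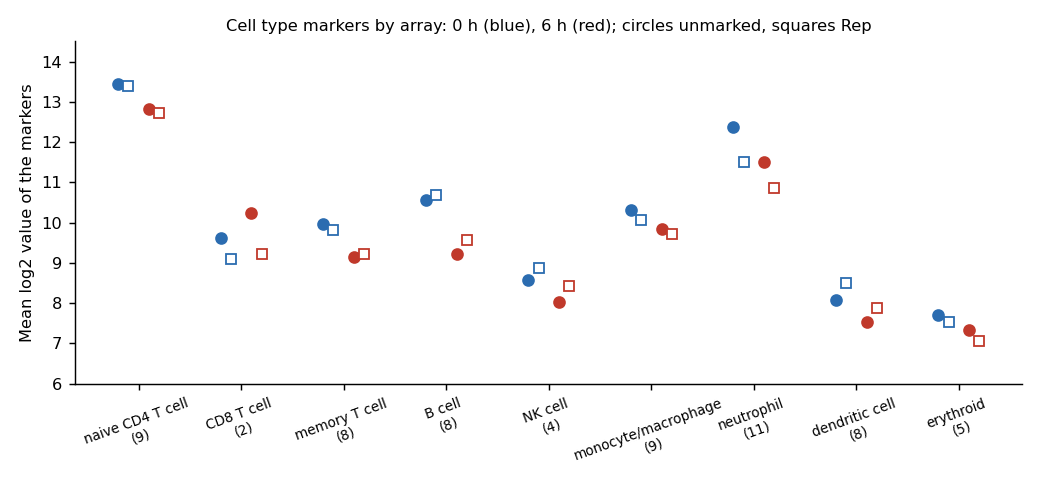
Mean log2 value of the measured markers of each cell type (vertical axis; number of markers in parentheses) on the 4 transgenic arrays, 0 h in blue and 6 h in red, circles unmarked and squares marked Rep. Naive CD4 T cell markers lie between 12.71 and 13.44, B cell markers are lower on both arrays at 6 h, and the neutrophil markers differ between the 2 arrays at 0 h (12.37 and 11.51).

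The response of transgenic cells was set beside that of WT cells. In WT cells 2955 probe sets rose (12.6%) and 3254 fell (13.9%). Of the 5935 called in transgenic cells 5902 had the same sign in WT, and over all probe sets the 2 sets of differences correlated with r = 0.958, with a slope of 0.95 for transgenic on WT. These figures are across probe sets, which are not independent, within 1 normalisation of all arrays. The difference between the responses passed for 0 of 23410 probe sets (limma), and with the mark Rep as a block for 0 as well. An unadjusted p under 0.05 was found for 420 (1.79%). This is a smaller share than the 0.05 that would be reached on average with no difference anywhere. The lack of calls has a limit. It does not show that the responses are alike, since the SE of a difference between responses is larger than that of either.

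Among the named genes, the IL-17 pair and Nova1 stood far from the line of equal change. Il17f read 7.01 and 7.0 at 0 h and 8.72 and 9.25 at 6 h in transgenic cells, and 6.88 and 7.12 and then 7.16 and 7.54 in WT. Il17a read 6.57 and 6.62 and then 7.58 and 7.97 in transgenic cells, and 6.74 and 6.91 and then 6.94 and 6.85 in WT. At 6 h all transgenic readings of both genes lay above the WT readings. The responses differed by 1.63 ± 0.32 for Il17f (unadjusted p = 0.00062, adjusted p = 1, and 0.23 with the block) and by 1.11 ± 0.18 for Il17a (unadjusted p = 0.00015, adjusted p = 1, and 0.67 with the block), which did not pass. Nova1, a splicing regulator known from neurons, is read by probe set 10400155 at 11.32 and 11.24 in transgenic cells at 0 h and 9.31 and 9.51 at 6 h (-1.87 ± 0.17, adjusted p = 7.7e-05), but near the floor in WT, at 5.25 and 5.68 and then 5.63 and 5.30. The responses differed by -1.87 ± 0.24 (limma, unadjusted p = 2.5e-05, adjusted p = 0.58, and 0.44 with the block). The other probe set of Nova1, 10400157, which has the higher mean, fell by 1.48 (SE 0.24) in transgenic cells. On that set the responses differed by -1.16 ± 0.34 (limma, unadjusted p = 0.008), which did not pass either. The WT readings of the first set lie below the lower quartile, so a fall there could not be seen. Il1a rose by 3.81 ± 0.61 in transgenic and 2.17 ± 0.61 in WT cells. The responses differed by 1.63 ± 0.86, which did not pass. Its WT readings at 6 h were 9.08 and 6.57, and without the unmarked WT array at 6 h the difference between the responses was 2.89. The WT pairs also differed in markers of other cells. Neutrophil markers averaged 12.48 and 9.05 in WT at 0 h and 11.77 and 8.78 at 6 h. Monocyte markers averaged 10.03 and 8.76 and then 10.05 and 8.41. The part of such cells in the Il1a readings was not tested.

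**Figure D5:**
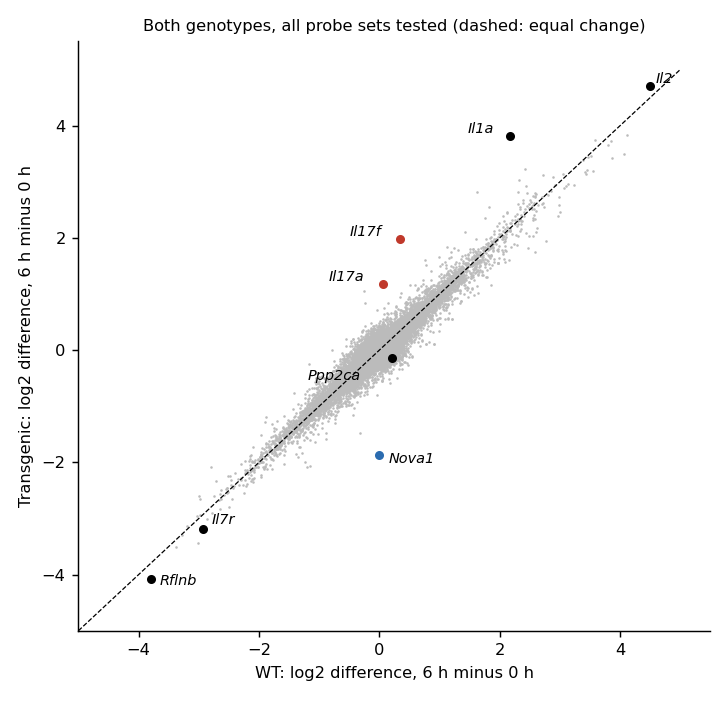
Log2 difference between 6 h and 0 h in transgenic cells (vertical axis) against that in WT cells (horizontal axis), 1 point per probe set tested; the dashed line marks equal change. Most points follow the line (r = 0.958). Il17f, Il17a and Il1a lie above it and Nova1, shown for probe set 10400155, below. For none of them did the difference between genotypes pass with all 12 arrays.

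Levels at 24 h in the transgenic cells show how the largest changes went on. Of the 15 largest rises, both 24 h readings lay below both 6 h readings for 11 genes and above both for 1, Lag3 (12.32 and 12.09 at 24 h), and all 15 stayed above both readings at 0 h. Il2 read 8.27 and 9.66 at 24 h, and Spry1 fell back from 12.26 and 12.53 to 9.72 and 9.79. Of the 15 largest falls, all had 24 h readings above both 6 h readings and below both at 0 h, such as Il7r with 12.30 and 12.04. The genes were picked for a large difference at 6 h, which favours readings at 24 h that lie closer to those at 0 h, so these are levels given as a description.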

How the data were processed

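RNA of all 12 samples was hybridised to one-colour arrays as biotin end-labelled cDNA, per the labels' protocols. In the table that the authors deposited, each of 28853 probe sets has a log2 value on every array, between 3.49 and 15.38. The steps from scanner signal to these values are not stated in the sources used here. Array medians spanned 7.39 to 7.5. This range of 0.11 exceeded a limit of 0.1, so values were quantile normalised between arrays, which forces equal distributions and would hide a shift of all genes.

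Symbols came from the array annotation, updated through RefSeq, where 91 had no entry. Probe sets with 1 symbol numbered 21789, those with several 1621 and those with none 5443. The 23410 with a symbol were tested in R 4.3.3 with limma 3.58.1, using 6 group means over 12 arrays and no block, with 6 residual and 3.05 prior degrees of freedom. The procedure was also run on simulated data with noise independent between arrays. That run lacks variation shared by arrays of the same mark, so it cannot show how such variation affects the calls. Lists used, per gene, the probe set of the highest mean among those with 1 symbol. Other tools were Python 3.11.15 with pandas 2.3.3 and numpy 2.4.6, and matplotlib 3.10.9 for plots.

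Members, 44 lists and tests were chosen with earlier results of these data known. Named were the 15 largest changes each way, up to 4 members of a list in its more frequent direction and 2 in the other by smallest p, and a fixed set. The genotype differences of smallest p in each direction were also picked, leaving out predicted genes. Of these, Esr1 (0.56), Cldn13 (-0.68) and Cfap52 (-0.41) are not described elsewhere, and their differences between the responses did not pass. Il3, Il4, Il6, Il21, Cxcl9, Fos, Jun, Gata3, Foxp3, Psmb8, Psmb9, Psmb10, Chac1, Trib3, Mvk, Acly, Scd2, Ppp2cb, Ppp2r1a and Cd79a were chosen after their values were seen.

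The deviations of unmarked arrays from their group means correlated positively in all 15 pairs of groups (0.138 to 0.591, and 0.298 between transgenic cells at 0 h and 6 h). Arrays with the same mark therefore varied together, and the mark entered as a replicate block in an alternative fit. Other alternatives were array weights, a minimum of 2-fold, the deposited values, median centring, a fit of the compared groups, all rows of the table, no dimmest 40% of probe sets, a single probe set for each gene, robust moderation with a trend, and leaving out each array at 0 h or 6 h.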

Additional observations from a re-analysis of the deposited data

Results flagged for a closer look

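For 6 of the 54 named genes, every stimulated array lay on one side of every unstimulated array in transgenic cells and on the opposite side in WT cells. All but Ppp2ca were named for the small p of their difference between the genotypes, so this count is set by that choice. The same held for 420 of all 23410 probe sets. The difference between the responses, transgenic minus WT, passed for none of the 6 (limma, adjusted p = 1). It was -0.35 for Ppp2ca, the gene of the transgene product, 0.54 for Crisp2, a gene of sperm, and 0.49 for Prr18. It was -0.45 for Porcn, which attaches a lipid to WNT proteins, -0.43 for Clec2e, a lectin-type receptor gene, and -0.60 for Fam161b. Crisp2 and Clec2e read below the lower quartile on these arrays.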

How the results depend on the processing

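Counts of risen and fallen probe sets ran from 2032 to 2925 and from 2065 to 3017 when 1 array of either genotype was left out, and leaving out an array of a pair assumes that the lone one varies like the other groups. With a minimum of 2-fold in the test 183 rose and 102 fell, a share of risen probe sets of 64.2% against 49.3%. Median centring gave 2862 and 2584, the deposited values 2917 and 2924, and the replicate block 3310 and 3562. In the refits of single genes 13501 values kept their side of the threshold, 824 lost a call and 265 gained one, and 0 called values changed sign. Values that passed in neither fit count as kept whatever their direction. Of the list medians 708 moved by less and 84 by more than the spread between replicates. The count of larger responses in transgenic cells was 0 in every fit except that without the unmarked WT array at 6 h, where it was 1 (0 to 1 over arrays left out), and the count of smaller ones was 0 throughout. The number of arrays is what limits precision, and readings under the lower quartile of 6.00 to 6.02 limit the size of a change.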
